A study of Ovis aries with 32 samples.

Results

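The TGF-beta, BMP and activin pathway was described in fat of sheep through 58 genes of the 28524 in the count table. They were taken by symbol and not by their values: TGF-beta, BMP, GDF and activin or inhibin ligands, their receptors, the SMAD proteins, and the secreted proteins noggin, chordin, gremlin, follistatin, BMPER and their relatives. The RNA came from 8 female sheep (Ovis aries), of which 4 were controls and 4 were daughters of ewes injected with testosterone. Between gestation days 30 and 90 those ewes were given testosterone propionate into the muscle 2 times weekly, 100 mg (1.2 mg/kg) per injection, carried in corn oil (2 ml). The labels call the dams of the other 4 sheep controls and name no injection for them. Each sheep gave 4 fat samples: visceral (mesenteric) fat by the rumen, subcutaneous fat of the sternal region, perirenal fat around the kidney, and epicardial fat lying on the heart muscle. All 8 sheep, controls included, had been ovariectomized and carried a 1 cm estradiol implant. Progesterone from 2 implants was then given over 14 days, and after their removal 4 estradiol implants (30 mm each) were in place for the last 18 hours before collection, so every comparison was made in an imposed follicular phase. The series is presented as a sheep model of polycystic ovary syndrome.

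Ligands of this family bind pairs of type I and type II receptor kinases on the cell surface. Receptors for TGF-beta and activin pass the signal to SMAD2 and SMAD3, receptors for BMPs pass it to SMAD1, SMAD5 and SMAD9, and both groups enter the nucleus with the shared partner SMAD4. SMAD6 and SMAD7 damp the signal inside the cell, and follistatins, chordins and BMPER bind the ligands outside it. In fat, BMP ligands are known for driving progenitors towards adipocytes, TGF-beta and activin A for holding them back, and the receptor ACVR1C (ALK7) for restraining fat breakdown.

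The libraries read the 3′ ends of transcripts, so levels of different genes were set side by side in CPM (a gene's share of a library's counts, scaled to a common library size) without a length correction. This holds only where a gene's 3′ end is annotated, which was not checked, so a low level can understate a transcript. Among adipocyte genes, PLIN1 had group means of 27.4 to 58.1 CPM and FABP4 of 7814 to 24278 CPM. Library totals lay between 784135 counts (testosterone sheep 48, subcutaneous fat) and 8267824 counts (control sheep 132, perirenal fat). ADIPOQ, the adipocyte hormone adiponectin, had group means from 5630 to 14485 CPM, so fat-cell RNA was present in every depot. Heart muscle genes, of which 10 of the 12 listed were in the table, summed to between 17.8 and 20845 CPM in epicardial libraries and to at most 98.5 CPM elsewhere. Their sums were 13505, 3252, 17.8 and 379 CPM in control sheep 98, 131, 132 and 201, and 20845, 262, 2739 and 19.4 CPM in testosterone sheep 48, 185, 233 and 255. TNNT2 and MYL7, which define heart muscle, had a mean of 0 CPM in the 3 other depots. ARGLU1 and LUC7L3, transcripts retained in the nucleus, summed to 27953 CPM in visceral fat of testosterone sheep 255, 35916 CPM in subcutaneous fat of sheep 48, and 8057 and 7764 CPM in epicardial fat of sheep 48 and 233, against at most 4161 CPM in any other library. In the epicardial library of testosterone sheep 255, HOXC6, a gene of trunk position, stood at 95.5 CPM against 0 to 2.17 in the other 7 epicardial libraries. Its heart muscle sum of 19.4 CPM was low, but so was that of control sheep 132 (17.8 CPM). With its HOXC6 level, the identity of this library as epicardial fat is in doubt, and whether it holds fat of another depot was not tested. The library enters the epicardial means and tests of testosterone sheep. Fits were repeated without the visceral and epicardial libraries of sheep 255 and the subcutaneous library of sheep 48, and, apart from that, without the 4 epicardial libraries richest in heart muscle transcripts (sheep 98, 131, 48 and 233). In these bulk samples, fewer cells of a type and less RNA per cell cannot be told apart.

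Of the 58 genes, 37 had a mean over 1 CPM, 17 were lower, and 4 had no count in any library. The 4 were NOG (noggin, a BMP antagonist), the activin C subunit gene INHBC, and the ligand genes GDF6 and GDF7. Whether the annotation used for counting covered their 3′ ends was not checked. All 7 type I and all 4 type II receptor genes passed 1 CPM, whereas 2 of the 9 GDF ligand genes did. A filter on low counts left 35 of the 58 for the depot tests in control sheep and 36 for those in testosterone sheep. In all, 41 were tested somewhere and 17 nowhere. CHRDL1, FSTL1, SMAD5, TGFBR2 and ACVR1C together held 57.2% of the mean CPM of the 58 genes.

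The highest mean levels over the 32 libraries were those of 2 secreted proteins. CHRDL1, which binds BMPs, reached 428 CPM, and FSTL1, a follistatin relative, reached 343 CPM. They were followed by the BMP mediator SMAD5 (241 CPM), the TGF-beta type II receptor TGFBR2 (237 CPM), ACVR1C (158 CPM) and the co-receptor betaglycan, TGFBR3 (131 CPM). SMAD4 (113 CPM) and the type I receptors BMPR1A (91.0 CPM) and TGFBR1 (90.4 CPM) came next. The highest ligand was BMP4 at 68.7 CPM. The ligand TGFB1 stood at 4.62 CPM, below TGFB2 (55.3 CPM) and TGFB3 (8.62 CPM), as a level per transcript end. Together the 58 genes took between 0.186% and 0.317% of the counts of a library.

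**Figure D1:**
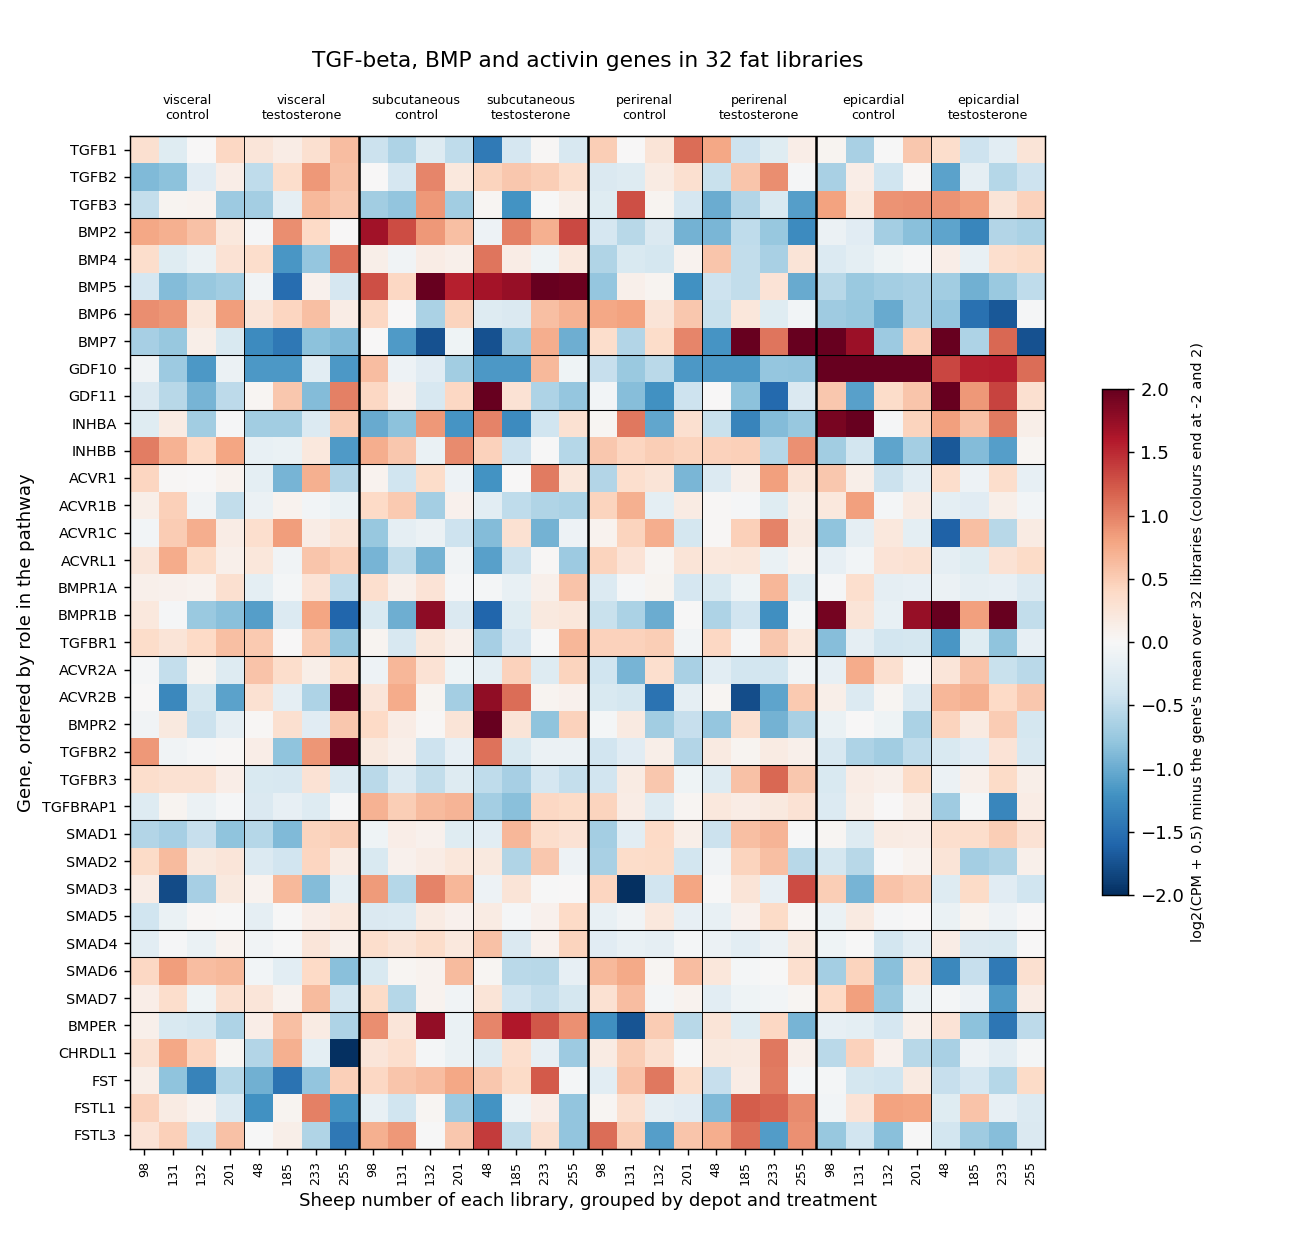
Each row is 1 of the 37 pathway genes with a mean over 1 CPM and each column 1 of the 32 libraries, grouped by depot and treatment; colour is log2(CPM + 0.5) minus the gene's mean over all libraries. BMP5 and BMP2 are high across subcutaneous libraries, GDF10 across epicardial libraries, and BMP7 and BMPR1B in single epicardial libraries.

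The first comparison asks which pathway genes differ between fat depots of control sheep. A joint test over the 4 depots (edgeR quasi-likelihood F test with 3 degrees of freedom, the sheep as a block, Benjamini-Hochberg adjusted p under 0.05 over all genes tested) called 21 of the 35 pathway genes tested, where it called 5331 of all 13369 genes, or 39.9%. Without control sheep 98, 131, 132 and 201 in turn it called 12, 12, 14 and 13 pathway genes, and 3610, 3372, 4089 and 3659 of all genes. The depots most alike were visceral and perirenal fat, which differed in 1 pathway gene, BMP2, against 82 of all genes (0.613%). Visceral and subcutaneous fat differed in 12 pathway genes, 4 higher and 8 lower in visceral fat, against 13.8% of all genes. Visceral and epicardial fat also differed in 12, 8 of them higher in visceral fat, against 21.9%. Subcutaneous fat differed from perirenal fat in 10 (6 higher in subcutaneous fat, background 23.7%) and from epicardial fat in 12 (7 higher in subcutaneous fat, background 23.3%). Perirenal and epicardial fat differed in 7, 6 of them higher in perirenal fat, against 25.3%. No test compared the shares of pathway genes with those of all genes.

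A gene was counted as set apart in a depot if it passed the test against each of the other 3 depots in the same direction. In control sheep 8 pathway genes met this. Of them, 4 were higher in subcutaneous fat (BMP5, BMP2, SMAD4 and TGFBRAP1), against 1.91% of all genes, and 1 was lower there (ACVRL1), against 3.01%. GDF10 was higher in epicardial fat (background 4.09%) and INHBB and BMP6 were lower there (background 4.13%). None was set apart in visceral fat, where 0.112% of all genes were, or in perirenal fat, where 0.172% were, and DESeq2 also set apart 0 in both.

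Like BMP2, the bone morphogenetic protein BMP5 was a ligand set apart as higher in subcutaneous fat. Its level was 37.4, 20.2, 70.1 and 45.1 CPM in the subcutaneous fat of control sheep 98, 131, 132 and 201. In the same sheep it was 11.8, 8.05, 8.65 and 9.05 CPM in visceral fat, 8.56, 16.2, 15.6 and 6.20 CPM in perirenal fat, and 10.02, 8.75, 9.15 and 9.45 CPM in epicardial fat. The lowest subcutaneous library lay above every library of the other depots. The log2 difference was 1.88 ± 0.32 (SE, n = 4 sheep) from perirenal fat, the nearest depot, and 2.17 from visceral and from epicardial fat, with a largest adjusted p of 9.46e-04 in edgeR's quasi-likelihood test. BMP5 stayed set apart without any 1 of the 4 control sheep.

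BMP2, which also acts through the BMP type I receptors, was highest in subcutaneous fat and next highest in visceral fat. Control sheep 98, 131, 132 and 201 had 59.9, 45.9, 33.7 and 27.8 CPM in subcutaneous fat and 31.6, 30.2, 27.5 and 21.2 CPM in visceral fat. Perirenal fat held 14.4, 12.3, 14.8 and 9.20 CPM, and epicardial fat 16.8, 15.5, 11.2 and 10.1 CPM. Every sheep had more BMP2 in subcutaneous than in visceral fat, although the 2 ranges overlapped, and both ranges lay above those of perirenal and epicardial fat. The log2 difference between subcutaneous and visceral fat was 0.58 ± 0.16 (SE, n = 4; adjusted p = 0.0216 in edgeR's test). Its adjusted p was 0.115 without the sheep as a replicate block, and 0.133, 0.115 and 0.0568 without sheep 98, 131 and 201. The log2 difference from perirenal fat was 1.71 ± 0.17 (adjusted p = 5.75e-06).

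BMP6, a BMP known for inducing the iron hormone hepcidin, was lowest in epicardial fat. Its epicardial level was 14.2, 13.8, 11.6 and 15.0 CPM in control sheep 98, 131, 132 and 201, against 31.9, 23.9, 15.2 and 32.6 CPM in subcutaneous, 45.5, 44.4, 27.9 and 42.7 CPM in visceral, and 40.7, 41.8, 28.5 and 34.6 CPM in perirenal fat. No epicardial library reached the lowest library of another depot, and sheep 132 was the lowest of the 4 sheep in every depot. The log2 difference between epicardial and subcutaneous fat, the nearest depot, was -0.89 ± 0.17 (SE, n = 4; adjusted p = 9.69e-04 in edgeR's test).

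INHBB encodes the beta-B subunit of activin B, a ligand that adipocytes are known to make. Epicardial fat held 22.3, 28.1, 17.3 and 22.6 CPM in control sheep 98, 131, 132 and 201. Visceral fat held 74.1, 59.3, 47.8 and 63.4 CPM, subcutaneous fat 60.4, 52.8, 33.0 and 70.4 CPM, and perirenal fat 53.2, 48.98, 51.5 and 49.4 CPM. The epicardial range again lay below all others, and the other 3 depots did not differ from each other beyond the test's threshold. Epicardial fat was lower than perirenal fat, the nearest depot, by a log2 difference of -1.17 ± 0.17 (SE, n = 4; adjusted p = 1.60e-04 in edgeR's test). Beside both genes stands the summed level of 8 adipocyte genes, whose median was 20876 CPM in epicardial fat of control sheep and 31946 to 40365 CPM in the other depots. Not all 8 genes followed this sum. In control sheep the means of ADIPOQ, FABP4, LEP, CIDEC and PPARG were lowest in epicardial fat. Those of LPL (4270 CPM) and PLIN1 (58.1 CPM) were highest there, and that of GPD1 was neither. What part the sum has in the lower INHBB and BMP6 was not tested.

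GDF10, also called BMP3b, was detected mainly in epicardial fat. It stood at 3.88, 6.89, 4.32 and 4.31 CPM in the epicardial libraries of control sheep 98, 131, 132 and 201. In the other 3 depots of these sheep its values ran from 0 to 1.20 CPM, so no library overlapped. The log2 difference from subcutaneous fat, the nearest depot, was 3.10 ± 0.56 (SE, n = 4; adjusted p = 7.68e-04 in edgeR's test), and the call held without each sheep and without the heart muscle libraries. In control sheep GDF10 passed the filter on low counts only through its epicardial libraries, the group where it is high. These tests are therefore no separate support for the difference. Among these 4 libraries sheep 132, with the lowest heart muscle sum, had 4.32 CPM and sheep 98, with the highest, had 3.88 CPM.

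BMP7 and the activin A subunit gene INHBA also had their highest means in epicardial fat of control sheep, from high values in 2 of the 4 libraries. BMP7, named here after its values were seen, stood at 13.2 and 5.03 CPM in the epicardial libraries of control sheep 98 and 131 and at 0.518 and 1.85 CPM in those of sheep 132 and 201. The joint test called it (adjusted p = 0.0360 in edgeR's test), but not without the heart muscle libraries (0.260), sheep 98 (0.234) or sheep 131 (0.217). INHBA stood at 49.8, 81.4, 12.8 and 17.9 CPM in the same 4 libraries and missed the threshold (adjusted p = 0.122). In testosterone sheep 48, 185, 233 and 255 the epicardial level of BMP7 was 10.2, 0.591, 3.25 and 0 CPM. In perirenal fat of the same sheep it was 0.242, 6.58, 3.01 and 9.97 CPM, a higher mean (4.95 against 3.52 CPM), in libraries whose heart muscle genes summed to 3.19 to 5.57 CPM. The type I BMP receptor BMPR1B reached 7.98 and 8.35 CPM in the epicardial libraries of testosterone sheep 48 and 233 and 5.17 and 4.52 CPM in those of control sheep 98 and 201, and was tested only in fits that included testosterone sheep. For BMP7 the epicardial libraries rank almost as their heart muscle sums do, for INHBA and BMPR1B less closely, and the part of those transcripts in the levels was not tested.

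**Figure D2:**
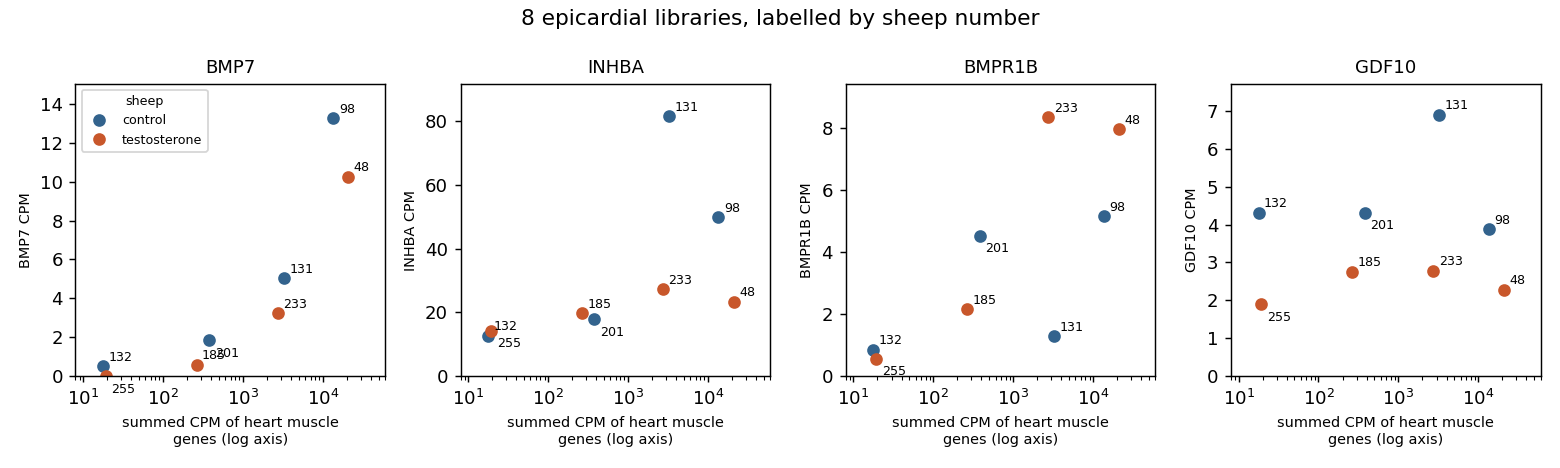
Each point is 1 of the 8 epicardial libraries, labelled by sheep number and coloured by treatment; the x axis is the summed CPM of heart muscle genes on a log axis and the y axis the CPM of the named gene from 0. BMP7 is highest in sheep 98 and 48, which have the largest heart muscle sums. GDF10 stands at 4.32 CPM in control sheep 132 and 3.88 CPM in control sheep 98.

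Of the 3 TGF-beta ligands, TGFB1 was called in the joint test and the other two were not. TGFB1, named after its values were seen, had a mean of 6.49 CPM in perirenal fat of control sheep, against 4.88 CPM in visceral, 4.50 CPM in epicardial and 3.06 CPM in subcutaneous fat. Its call (adjusted p = 0.0397 in edgeR's test) was lost without any 1 of the 4 sheep (0.0684 to 0.277), without the replicate block (0.0953) and without the heart muscle libraries (0.0529). TGFB1 lies over CCDC97 in the RefSeq annotation, and without a stated strand setting their reads cannot be told apart. TGFB2 had means from 39.5 CPM in visceral to 63.8 CPM in subcutaneous fat (adjusted p = 0.0682). TGFB3 ran from 6.50 CPM in visceral to 13.2 CPM in epicardial fat (adjusted p = 0.0916). BMP4, the ligand with the highest CPM, had means between 53.7 and 69.4 CPM and was not called (adjusted p = 0.112).

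**Figure D3:**
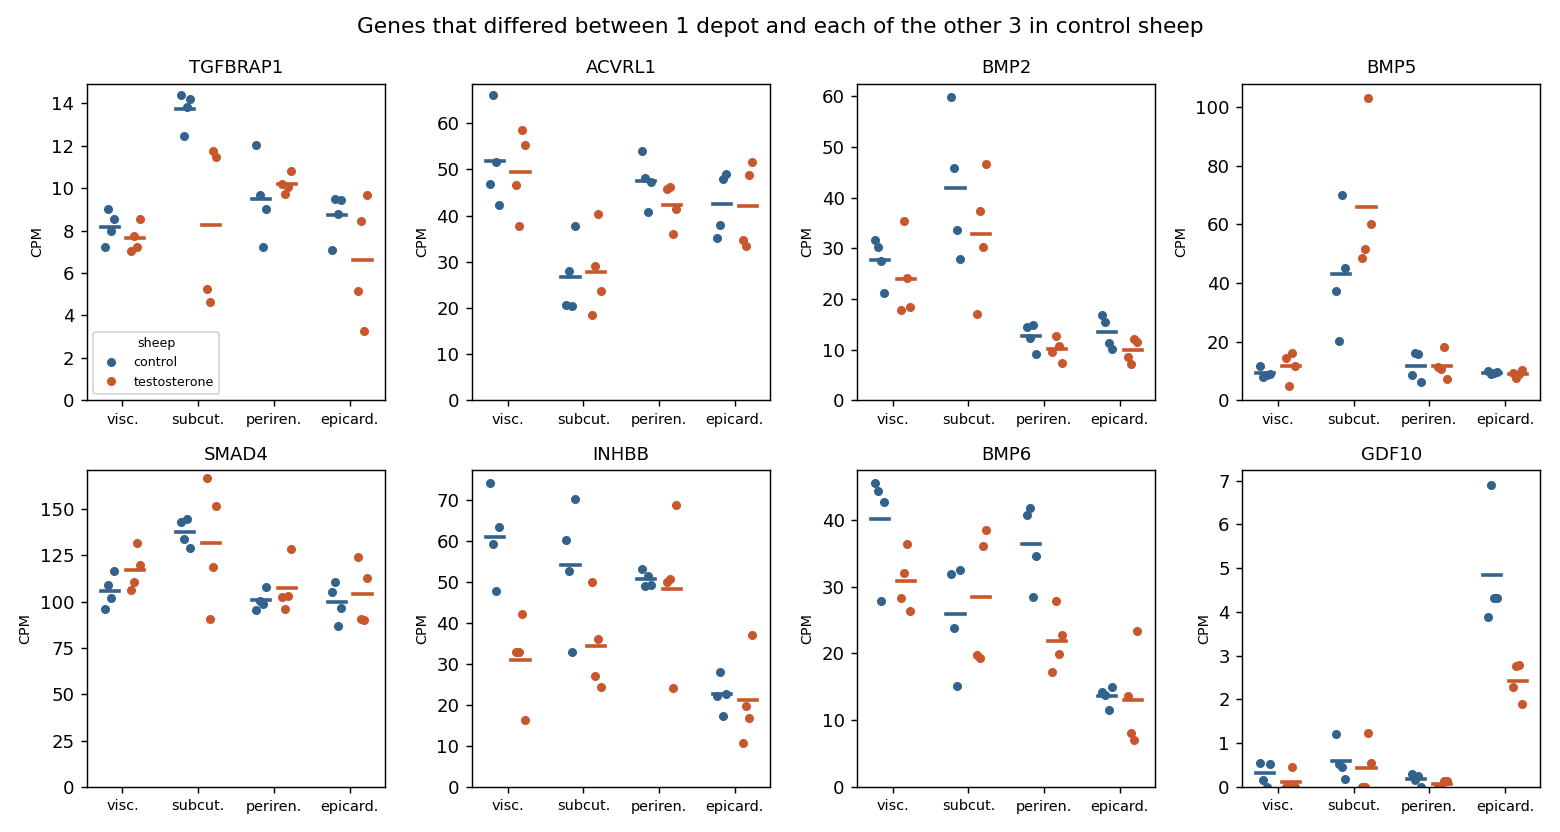
Each panel shows 1 gene that differed between 1 depot and each of the other 3 in control sheep; points are the 4 sheep of each treatment, bars their means, and the y axis is CPM from 0. BMP5 is high in subcutaneous fat and GDF10 in epicardial fat of both groups of sheep, while the mean of INHBB in visceral fat of testosterone sheep lies below that of controls, without a call.

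Among the type I receptors, ACVR1C, TGFBR1 and ACVRL1 differed between depots. ACVR1C, the ALK7 receptor, had 142, 210, 243 and 163 CPM in visceral fat of control sheep 98, 131, 132 and 201, and 86.7, 130, 136 and 110 CPM in their subcutaneous fat. Every sheep was lower in subcutaneous fat, by 0.68 ± 0.14 on the log2 scale (SE, n = 4; adjusted p = 0.00489 in edgeR's test). Perirenal fat (mean 179 CPM) resembled visceral fat (189 CPM), and epicardial fat (128 CPM) resembled subcutaneous fat (116 CPM). The joint call rests on the comparison within sheep, since its adjusted p was 0.0683 without the replicate block.

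TGFBR1, the type I receptor for TGF-beta, was lowest in epicardial fat, with 47.2, 75.8, 66.4 and 67.4 CPM against 111, 103, 114 and 130 CPM in visceral fat of control sheep 98, 131, 132 and 201. The log2 difference was 0.82 ± 0.17 (SE, n = 4; adjusted p = 0.00230 in edgeR's test), and that between epicardial and subcutaneous fat missed the threshold (adjusted p = 0.0612). ACVRL1, the ALK1 receptor of endothelial cells, was lower in subcutaneous fat than in each other depot. It stood at 20.6, 27.9, 20.3 and 37.7 CPM there, and at means of 51.7 CPM in visceral, 47.5 in perirenal and 42.5 in epicardial fat. Sheep 201 overlapped the epicardial range. The log2 difference from epicardial fat, the nearest depot, was -0.69 ± 0.20 (SE, n = 4; adjusted p = 0.0172), and it was lost without sheep 98 (0.0565) and without sheep 132 (0.145). The summed level of 6 endothelial genes in control sheep had medians of 934 CPM in subcutaneous fat, 884 CPM in visceral, 987 CPM in perirenal and 636 CPM in epicardial fat. The subcutaneous median lay below that of perirenal fat and above those of visceral and epicardial fat, and its part in the ACVRL1 level was not tested.

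TGFBR2 and TGFBR3 showed smaller shifts. TGFBR2, the type II receptor, was higher in visceral fat (393, 204, 213 and 219 CPM in control sheep 98, 131, 132 and 201) than in epicardial fat (172, 140, 132 and 151 CPM), with no overlap. The joint adjusted p of 0.0231 in edgeR's test became 0.125 without the heart muscle libraries, and 0.0951, 0.0719 and 0.0667 without sheep 98, 131 and 201. TGFBR3, which presents TGF-beta2 to TGFBR2, was lower in subcutaneous fat (86.2, 104, 89.5 and 105 CPM) than in visceral fat (160, 154, 156 and 137 CPM), again with no overlap, by 0.65 ± 0.16 on the log2 scale (SE, n = 4; adjusted p = 0.0137). Its joint adjusted p of 0.0232 became 0.0509, 0.0988 and 0.0533 without sheep 98, 131 and 132. The 6 listed markers of mesothelium, the cell layer on visceral surfaces, summed to a median of 1.65 CPM in subcutaneous fat and 67.0 to 106 CPM in the other depots of control sheep. That sum was nearly all WT1, at a mean of 110 CPM in visceral fat of control sheep. UPK3B, MSLN, LRRN4 and BNC1 were at 0.041 to 0.834 CPM there and KRT19 at 1.2 CPM. The sum is thus a value for WT1 rather than for the cell layer, and its part in these differences was not tested. BMPR1A, BMPR2, ACVR1, ACVR1B, ACVR2A and ACVR2B were tested and not called, with adjusted p from 0.133 to 0.776. TGFBRAP1, a protein that binds TGF-beta receptors and SMAD4, was higher in subcutaneous fat (14.4, 12.5, 13.8 and 14.2 CPM) than in any library of the other depots (7.21 to 12.02 CPM). The step to perirenal fat was 0.57 ± 0.20 on the log2 scale with an adjusted p of 0.0493. It was lost without any 1 of the 4 sheep (0.118 to 0.225), with another scaling of the libraries (RLE factors, 0.0553), with no filter on low counts (0.135), in DESeq2 (0.0590) and without the heart muscle libraries (0.205).

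SMAD4, the partner of all receptor-activated SMADs, was higher in subcutaneous fat by a small and even step. Its subcutaneous level was 143, 134, 145 and 129 CPM in control sheep 98, 131, 132 and 201, and its highest value in the other depots of these sheep was 117 CPM. The log2 difference from visceral fat, the nearest depot, was 0.40 ± 0.12 (SE, n = 4; adjusted p = 0.0364 in edgeR's test). Without sheep 98, 131, 132 and 201 that adjusted p was 0.144, 0.117, 0.159 and 0.0582, and with no filter on low counts it was 0.111.

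SMAD3, which carries TGF-beta and activin signals, differed between depots and also between animals. Control sheep 98, 131, 132 and 201 had 39.1, 9.86, 22.2 and 40.5 CPM in visceral fat, 64.5, 23.6, 71.2 and 56.4 CPM in subcutaneous fat, 48.1, 8.27, 27.1 and 61.6 CPM in perirenal fat, and 50.1, 18.2, 53.0 and 50.7 CPM in epicardial fat. Sheep 131 was the lowest control in all 4 depots, and every sheep had more SMAD3 in subcutaneous than in visceral fat. With the sheep as a block, subcutaneous fat exceeded visceral fat by 1.05 ± 0.23 on the log2 scale (SE, n = 4; adjusted p = 0.00682 in edgeR's test). Without the replicate block the joint adjusted p rose from 0.00717 to 0.501, and without sheep 131 or 132 it was 0.0511 and 0.0725. SMAD3 lies over AAGAB in the RefSeq annotation, so reads of the 2 genes may have been shared.

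**Figure D4:**
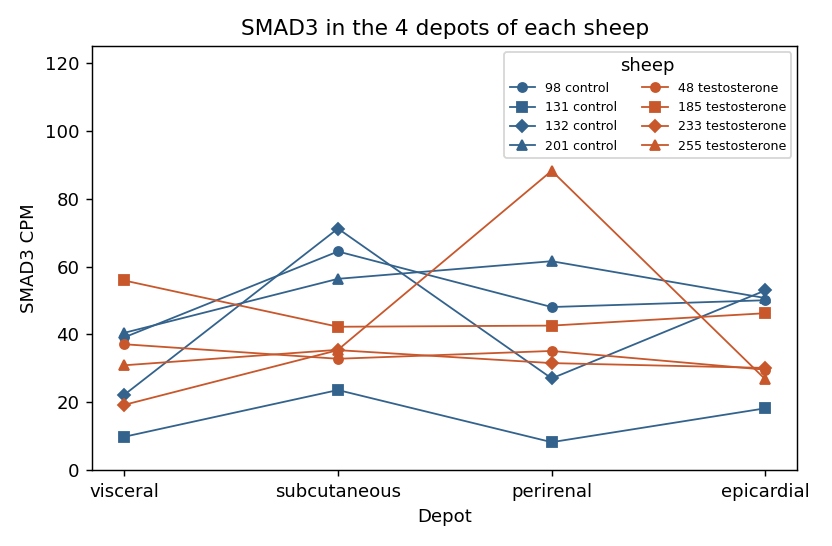
Each line joins the SMAD3 level (CPM, y axis from 0) in the 4 depots of 1 sheep, coloured by treatment. Control sheep 131 lies below the other 3 control sheep in every depot, with a mean of 15.0 CPM over the depots.

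The other SMADs varied less. SMAD1, a BMP mediator, was lower in visceral fat (mean 21.6 CPM) than in subcutaneous (33.2 CPM) and epicardial fat (34.4 CPM), and its joint adjusted p of 0.0238 in edgeR's test was lost without sheep 131, 132 or 201 (0.0748 to 0.104). SMAD6, the inhibitor of BMP signalling, was higher in visceral fat (30.8, 41.2, 35.4 and 36.4 CPM in control sheep 98, 131, 132 and 201) than in epicardial fat (14.2, 31.3, 12.6 and 28.3 CPM). The ranges of SMAD6 overlapped, and the joint adjusted p of 0.0230 became 0.132 without the replicate block, 0.117 without sheep 98 and 0.0769 without sheep 132. SMAD2, SMAD5 and SMAD7 were not called. SMAD5 had depot means in control sheep from 220 to 241 CPM (adjusted p = 0.715).

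Of the secreted modulators, FST, BMPER, FSTL3 and FSTL1 were called. FST, follistatin, which neutralizes activins, was low in visceral fat (36.1, 18.9, 12.9 and 22.4 CPM in control sheep 98, 131, 132 and 201) and higher in subcutaneous fat (44.3, 49.4, 51.3 and 57.5 CPM), by 1.19 ± 0.30 on the log2 scale (SE, n = 4; adjusted p = 0.0192 in edgeR's test). BMPER, which modulates BMPs outside the cell, had a mean of 15.99 CPM in subcutaneous fat and 5.80 to 7.57 CPM elsewhere, and FSTL3, another activin-binding protein, had 6.90 CPM in epicardial fat and 11.8 to 14.5 CPM elsewhere. FSTL1 ran from 255 CPM in subcutaneous to 437 CPM in epicardial fat. CHRDL1, the gene with the highest CPM, had means from 383 CPM in epicardial to 535 CPM in visceral fat and fell just short of the threshold (adjusted p = 0.0501).

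Each of these 4 joint calls was lost in some fits with fewer sheep. FST had an adjusted p of 0.142, 0.0518 and 0.0970 without sheep 131, 132 and 201, and BMPER of 0.124 and 0.0813 without sheep 98 and 131. FSTL3 had 0.0839, 0.197 and 0.0668 without sheep 98, 131 and 201, 0.140 without the replicate block and 0.355 without the heart muscle libraries. FSTL1 had 0.0756, 0.111 and 0.261 without sheep 131, 132 and 201, and 0.0517 without the block. Over the whole set, 8 of the 21 genes called in the joint test were called in all 4 fits that left out 1 control sheep: BMP2, BMP5, BMP6, GDF10, INHBB, ACVR1C, ACVRL1 and TGFBR1. The matching share over all genes was not computed.

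The same comparison was made in the testosterone sheep as a separate set of animals. The joint test called 4 of the 36 pathway genes tested, against 4.82% of all genes, and all 4 (BMP5, BMP2, BMPER and TGFBR3) were also called in control sheep. BMP5 was 48.6, 51.5, 103 and 60.0 CPM in subcutaneous fat of testosterone sheep 48, 185, 233 and 255, and at most 18.2 CPM in their other depots. Its log2 difference from perirenal fat was 2.51 ± 0.29 (SE, n = 4; adjusted p = 4.36e-04 in edgeR's test). It was the 1 pathway gene set apart in a depot of these sheep, where 0.969% of all genes were set apart in any depot. BMP2 again had its highest mean in subcutaneous fat (32.8 CPM), followed by visceral (24.0 CPM), perirenal (10.02 CPM) and epicardial fat (9.82 CPM), but its step from visceral to subcutaneous fat missed the threshold (adjusted p = 0.584). BMPER likewise had its highest mean in subcutaneous fat (20.1 CPM, against 5.81 to 9.25 CPM elsewhere). TGFBR3 was again lowest in subcutaneous fat (89.2 CPM), and highest in perirenal fat (189 CPM) where visceral fat had been highest in control sheep. Of the 20 genes called in control sheep and tested in testosterone sheep, 9 had the same depot highest in both. The matching share over all genes was not computed. The testosterone means include the libraries of sheep 48 and 255 that the refit below leaves out.

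The shorter list in testosterone sheep depended on single animals and libraries. Without sheep 185 or sheep 233 the joint test called 1 pathway gene, and without sheep 255 it called 8, while the count over all genes went from 647 to 165, 95 and 1422. Without the visceral and epicardial libraries of sheep 255 and the subcutaneous library of sheep 48, the joint test called 10 of the 37 pathway genes tested, 8 of them called in control sheep, while it called 17.8% of all genes. BMP6 was then lower in epicardial fat than in each other depot (nearest log2 difference -1.10, adjusted p = 0.0338), and INHBA (1.48, adjusted p = 0.0139) and BMPR1B (2.55, adjusted p = 0.0497) were higher there. In that fit BMPR1B would not have passed the filter on low counts without its epicardial libraries, the group where it is high. Its test is therefore no separate support for the difference. The share of all genes set apart in that fit was not computed. Of the 3 epicardial libraries left in that fit, 2, from sheep 48 and 233, were rich in heart muscle transcripts. In DESeq2, the joint test over all 16 libraries of testosterone sheep also called 10 pathway genes, and 1855 of all genes. The difference between control and testosterone sheep in their depot patterns is tested by the interaction given further on, not by these counts.

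The second comparison asks whether prenatal testosterone changed pathway genes within a depot. No pathway gene passed an adjusted p of 0.05 in edgeR's quasi-likelihood test in any depot: 0 of 33 in visceral fat, 0 of 33 in subcutaneous fat, 0 of 34 in perirenal fat and 0 of 36 in epicardial fat. The background was 0% of 12860, 12166, 12872 and 12793 genes. At an unadjusted p under 0.05 there were 5, 2, 4 and 5 pathway genes, or 15.2%, 6.06%, 11.8% and 13.9% of those tested, against 9.425%, 5.11%, 5.37% and 5.64% of all genes. No test compared these shares. DESeq2 also called 0 pathway genes in each depot, although in epicardial fat it gave no adjusted p for 28 of them. With the counts of the 4 depots summed within each sheep, 0 of 41 pathway genes and 1 of 15301 genes (0.00654%) were called, with 4 pathway genes (9.76%) and 6.80% of all genes at an unadjusted p under 0.05. The median log2 change of the pathway genes tested was 0.02, 0.03, 0.12 and -0.05 in visceral, subcutaneous, perirenal and epicardial fat, and that of all genes tested lay between 0.003 and 0.021. The 95% interval lay within 1 log2 unit of 0 for 16, 19, 20 and 23 of the pathway genes in the 4 depots and for 32 of 41 in the sums, so a change of that size was left undecided for the remainder.

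**Figure D5:**
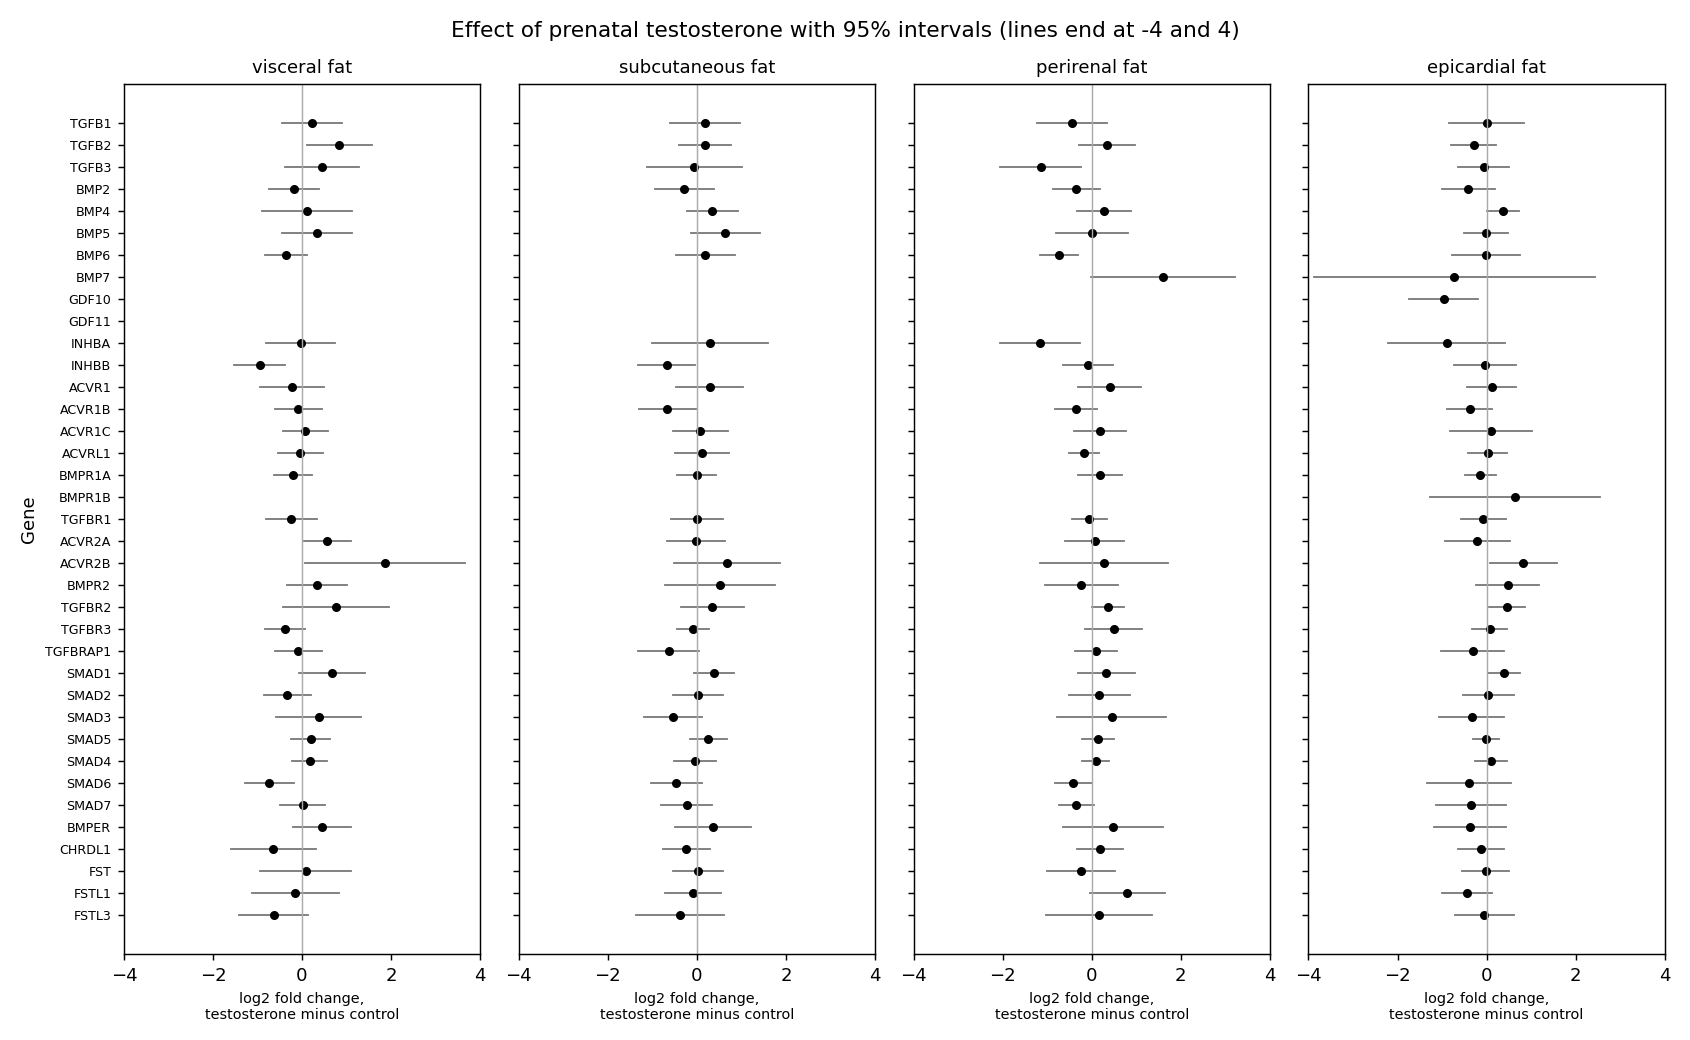
Each panel is 1 depot and each row 1 pathway gene with a mean over 1 CPM; points are log2 fold changes, testosterone minus control, from 4 against 4 libraries, and lines are 95% intervals; rows without a point were not tested in that depot. Most intervals cover 0, and INHBB in visceral fat and BMP6 in perirenal fat lie farthest below 0 relative to their intervals.

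The genes with the smallest unadjusted p are given as values. In visceral fat INHBB stood at 74.1, 59.3, 47.8 and 63.4 CPM in controls and at 32.9, 33.0, 42.1 and 16.3 CPM in testosterone sheep 48, 185, 233 and 255. The log2 change was -0.95 ± 0.26 (SE, n = 4 against 4; adjusted p = 0.521 in edgeR's test), with a 95% interval from -1.54 to -0.37. The summed adipocyte genes had medians of 40365 CPM in visceral fat of controls and 29059 CPM in that of testosterone sheep, and their part was not tested. They did not move together. The visceral means of ADIPOQ, FABP4, PLIN1, CIDEC and PPARG were lower in testosterone sheep, and those of LEP, LPL and GPD1 were higher. SMAD6 was 30.8, 41.2, 35.4 and 36.4 CPM in visceral fat of controls and 22.1, 19.8, 30.5 and 12.6 CPM in testosterone sheep (log2 change -0.73, 95% interval -1.28 to -0.18, adjusted p = 0.521). TGFB2 in visceral fat had a log2 change of 0.83 (95% interval 0.10 to 1.57). The visceral library of testosterone sheep 255, rich in nuclear RNA, was the lowest of its group for INHBB and SMAD6.

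In subcutaneous fat the first 3 were INHBB (log2 change -0.68, 95% interval -1.32 to -0.04), the activin receptor ACVR1B (-0.67, interval -1.30 to -0.03) and TGFBRAP1 (-0.63, interval -1.31 to 0.05), each with an adjusted p of 0.927. In perirenal fat BMP6 was 40.7, 41.8, 28.5 and 34.6 CPM in controls and 17.2, 27.8, 19.9 and 22.7 CPM in testosterone sheep. Its log2 change was -0.73 ± 0.20 (SE, n = 4 against 4; adjusted p = 0.878 in edgeR's test). INHBA (-1.16 ± 0.41) and TGFB3 (-1.15 ± 0.41) followed in perirenal fat, and for both the perirenal library of control sheep 131 was the highest of its group, at 27.6 and 19.5 CPM. Without sheep 131 their log2 changes were of smaller size, -0.73 for INHBA and -0.59 for TGFB3.

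In epicardial fat GDF10 was 3.88, 6.89, 4.32 and 4.31 CPM in controls and 2.28, 2.76, 2.78 and 1.90 CPM in testosterone sheep, with a log2 change of -0.97 ± 0.35 (SE, n = 4 against 4; adjusted p = 0.819 in edgeR's test). TGFBR2 (0.46 ± 0.18) and the activin receptor ACVR2B (0.82 ± 0.34) came next there, with adjusted p of 0.853 and 0.860. In the sums over depots the first 3 were SMAD6 (-0.48, 95% interval -0.80 to -0.15), GDF10 (-1.08, interval -1.83 to -0.33) and INHBB (-0.44, interval -0.75 to -0.12), with adjusted p from 0.651 to 0.665. ACVR2B and TGFBR2 had their highest values in the 2 libraries richest in nuclear RNA: ACVR2B was 15.5 CPM in visceral fat of sheep 255 and TGFBR2 was 897 CPM there and 460 CPM in subcutaneous fat of sheep 48.

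The third comparison asks whether the effect of testosterone differed between depots. The interaction of depot and treatment (edgeR's quasi-likelihood F test with 3 degrees of freedom over all 32 libraries, the sheep as a block) called 0 of 37 pathway genes and 1 of 14225 genes, or 0.00703%. DESeq2 also called 0 pathway genes and gave 3 of them no adjusted p. In edgeR's test 3 pathway genes had an unadjusted p under 0.05. They were TGFBR3, TGFB2 and SMAD3, each with an adjusted p of 0.994. The log2 change of TGFBR3 was -0.38, -0.08, 0.49 and 0.07 in visceral, subcutaneous, perirenal and epicardial fat. That of TGFB2 was 0.83, 0.18, 0.34 and -0.29 in the same order, and that of SMAD3 was 0.38, -0.54, 0.45 and -0.33.

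Pathway genes outside the 58 were read from 4 lists. Of the genes that store or activate latent TGF-beta, 8 of 12 tested differed between depots of control sheep in the joint test, where 39.9% of all genes did, and 2 of 12 in testosterone sheep, where 4.82% did. THBS1, thrombospondin 1, an activator of latent TGF-beta, was lower in epicardial fat (36.6 ± 14.1 CPM, SD, n = 4) than in visceral (265 ± 34.8), subcutaneous (233 ± 86.6) and perirenal fat (156 ± 25.0). LTBP1, which tethers latent TGF-beta to the matrix, was lowest in subcutaneous fat (25.3 ± 13.1 CPM, SD, n = 4) and highest in epicardial fat (134 ± 29.7 CPM), with visceral (73.6 CPM) and perirenal fat (70.3 CPM) between them. It passed the test against each other depot at both ends. Its relative LTBP4 had its highest mean in epicardial fat (64.9 ± 5.66 CPM) and its lowest in visceral fat (23.9 ± 5.07 CPM).

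Of the other ligands, co-receptors and modulators, 4 of 7 tested were called in control sheep, where 39.9% of all genes were. In testosterone sheep 0 of 7 were called, where 4.82% of all genes were, and 3 had an unadjusted p under 0.05 in edgeR's test. The share of all genes at that unadjusted level was not computed. CRIM1, a membrane protein that binds BMPs, was lower in epicardial fat (166 ± 20.7 CPM, SD, n = 4) than in perirenal (274 ± 75.6), visceral (519 ± 179) and subcutaneous fat (643 ± 176). NEO1, neogenin, a receptor for the BMP co-receptors of the repulsive guidance family, was lower in subcutaneous fat (12.9 ± 4.06 CPM) than in each other depot (means 21.2 to 34.0 CPM). RGMA, 1 of those co-receptors, had its highest mean in epicardial fat (48.4 ± 10.5 CPM).

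Of 16 intracellular regulators tested, 0 were called in testosterone sheep, where 4.82% of all genes were. At an unadjusted p under 0.05 in edgeR's test there was 1, and the share of all genes at that level was not computed. In control sheep 3 were called, a smaller share than the 39.9% of all genes. They were the SMAD co-repressors TGIF1, lower in epicardial fat (7.56 ± 1.19 CPM, SD, n = 4, against means of 14.9 to 15.9 CPM), and TGIF2, and the phosphatase PPM1A, which acts on SMADs. Of 20 target genes tested, 17 were called in control sheep and 4 in testosterone sheep, where 39.9% and 4.82% of all genes were. POSTN, periostin, a matrix protein, stood at 34.8 ± 4.33 CPM in epicardial fat against means of 165 to 206 CPM elsewhere. COL3A1, type III collagen, was higher in epicardial fat (1227 ± 117 CPM, against means of 428 to 639 CPM), as was the transcription factor JUNB (208 ± 87.4 CPM, against 72.8 to 134 CPM). Of the BMP targets, ID2, ID3 and ID4 were called and ID1 was not (adjusted p = 0.935). ID4, called in both control and testosterone sheep (adjusted p = 0.0116 and 0.0107 in edgeR's test), had its highest control mean in subcutaneous fat (45.2 CPM, against 22.4 to 28.2 CPM). HEY1 and ATOH8 were lower in epicardial fat, so these genes did not share 1 depot pattern. The summed markers of progenitors and fibroblasts had a median of 5656 CPM in epicardial fat and 3563 to 4239 CPM in the other depots of control sheep. They include COL1A1 and DCN, and DCN is also on the list of other modulators. The control means of PDGFRA, DCN, LUM, DPT and COL1A1 were highest in epicardial fat. That of DPP4 was lowest there, and those of PI16 and CD34 were neither. The part of these markers was not tested. In edgeR's test 0 genes of the 4 lists were called for testosterone, with 5 of 54, 5 of 55, 7 of 54 and 11 of 56 at an unadjusted p under 0.05 in visceral, subcutaneous, perirenal and epicardial fat and 8 of 58 in the sums. The shares of all genes at that level were 9.425%, 5.11%, 5.37% and 5.64% in the 4 depots and 6.80% in the sums, and no test compared them with the lists. DESeq2 also called 0 in each depot, with no adjusted p for 33 of the genes in epicardial fat, and it called 1, the TGF-beta receptor-associated gene STRAP, in the sums.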

How the data were processed

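Polyadenylated 3′ ends were sequenced from 32 fat samples of 8 sheep (QuantSeq libraries from RNA with an integrity number of at least 7, per the labels' protocols). The values used are the authors' raw counts per gene, deposited as 1 table of whole numbers. The submitters' processing notes name FastQC 0.11.5, MultiQC 0.9, Trimmomatic 0.36, STAR, featureCounts 1.6.1 and DESeq2 1.24.0; which genome build and which strand setting were used is not given in the sources used here. Groups and sheep numbers came from the labels, and 0 value columns belonged to no sample. No 2 of the 48 pairs of libraries within a group held identical counts or agreed within sampling noise.

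Counts were tested in edgeR 4.0.16 (R 4.3.3): TMM scaling, filterByExpr with a minimum count of 10, robust quasi-likelihood fits, Benjamini-Hochberg adjustment over all genes tested and a threshold of 0.05. Library sizes were the totals of the table. CPM values are scaled by TMM over 32 libraries. Testosterone was tested within each depot (8 libraries) and on counts summed per sheep, depots within each treatment, and the interaction over all libraries. DESeq2 1.42.0 was an alternative. Depot fits carried the sheep as a block because the 4 depots come from the same animals. Libraries of the same sheep deviated together in 41 of 48 pairs of depots (correlation over 0.1, mean 0.23, from -0.12 to 0.48).

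Genes were named by rule: those set apart in control sheep and the next 10 by the joint test, the 10 highest in level, those without a count, and, in each testosterone test and the interaction, the 3 with the smallest p where none was called. Of the genes in the lists outside the 58, up to 3 per list were named by the joint test; others named were chosen after their values were seen. The genes, lists and alternatives were chosen with earlier results of these data known. The fits were tested on simulated data. RefSeq annotation (ARS-UI_Ramb_v3.0) was used for names and neighbours. It matched 57 of the 58 genes, and 13 overlapped another gene. Of the genes called in control sheep, these include ACVR1C, BMP6, BMPER and TGFBR2 beside SMAD3 and TGFB1. Whether reads were shared was not checked. BMP8A and BMP8B are near-identical copies, so their low counts are uncertain. Intervals cover the spread of these 8 sheep.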

Additional observations from a re-analysis of the deposited data

Results flagged for a closer look

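In 28 pathway genes over the 8 groups of 4 libraries, 224 combinations, 17 had 1 library far from the other 3 of its group (gap over range above Dixon's 95% critical value). Chance alone flags about 1 in 20 groups.

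Among the ligands, BMP6 was low in visceral fat of control sheep 132 (27.9 CPM, next 42.7). GDF10 was high in epicardial fat of control sheep 131 (6.89 CPM, next 4.32) and present in visceral fat of testosterone sheep 233 (0.451 CPM) where the other 3 libraries of the group had 0. INHBA and TGFB3 both stood out in subcutaneous fat of control sheep 132, at 24.1 CPM (next 7.17) and 14.5 CPM (next 4.55). TGFB3 was also high in perirenal fat of control sheep 131 (19.5 CPM, next 7.99) and low in subcutaneous fat of testosterone sheep 185 (3.09 CPM, next 7.62).

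Among the receptors, TGFBR2 was high in visceral fat of control sheep 98 (393 CPM, next 219), subcutaneous fat of testosterone sheep 48 (460 CPM, next 199) and epicardial fat of testosterone sheep 233 (262 CPM, next 185). ACVR2B was high in visceral fat of testosterone sheep 255 (15.5 CPM, next 3.01). The libraries of sheep 48, 233 and 255 named in this paragraph for TGFBR2 and ACVR2B were rich in nuclear RNA. BMPR1A was high in visceral fat of control sheep 201 (111 CPM, next 95.8) and TGFBR1 low in its perirenal fat (82.0 CPM, next 118). TGFBR3 was high in visceral fat of testosterone sheep 233 (153 CPM, next 103).

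Of the others, SMAD3 was low in epicardial fat of control sheep 131 (18.2 CPM, next 50.1), CHRDL1 high in perirenal fat of testosterone sheep 233 (834 CPM, next 462), and FSTL1 high in epicardial fat of testosterone sheep 185 (459 CPM, next 276).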

How the results depend on the processing

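The counts of pathway genes called for testosterone, in each depot and in the sums, and for the interaction were 0 with RLE factors, no filter on low counts, DESeq2, each sheep left out, without the 3 libraries that stood apart and without the heart muscle libraries, each where it enters the fit, although DESeq2 called 10 to 63 of all genes in these testosterone tests. Leaving out 1 sheep at a time, the joint test of control sheep called 12 to 14 pathway genes in place of 21, and 3372 to 4089 of all genes in place of 5331. The same fits set apart 0 to 1 in visceral fat in place of 0, 2 in subcutaneous fat in place of 5 and 3 to 5 in epicardial fat in place of 3. In testosterone sheep, they called 1 to 8 in the joint test in place of 4 (95 to 1422 of all genes in place of 647) and set apart 0 to 1 in epicardial fat in place of 0. In testosterone sheep DESeq2 called 10 in the joint test (1855 of all genes) and set apart 2 in subcutaneous fat. Without the 3 libraries that stood apart the joint test called 10 (2427 of all genes), and 3 were set apart in epicardial fat. Shares over all genes were not computed for the set-apart counts of these alternative fits. Fits without 1 sheep hold fewer animals.

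Without the sheep as a replicate block, the joint test of control sheep called 15 pathway genes and 4073 of all genes, where the fit with the block called 21 and 5331. The calls lost without the block are given beside their genes. Of 414 recomputed values of single genes, 347 kept their side of the threshold, 67 no longer passed, and 0 reversed in sign. For the 21 genes of the joint test in control sheep, the value was the largest difference between depots without its sign. A reversal could therefore not show in those values, and the 0 says nothing about the direction of these depot differences. Low counts limit GDF10, BMP7, BMPR1B and ACVR2B, whose levels in many libraries rest on few reads.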

Other observations

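These values were looked at after the results were seen and are given as values. Of 296 combinations of the 37 pathway genes over 1 CPM and the 8 sheep, 12 had a sheep that was the lowest or the highest of its treatment group in all 4 depots. Control sheep 131 was the lowest for SMAD3 (mean 15.0 CPM over its depots) and TGFB1 (3.31 CPM) and the highest for ACVR1B (28.8 CPM) and CHRDL1 (578 CPM). Control sheep 132 was the lowest for BMP6 (20.8 CPM) and FSTL3 (6.55 CPM) and the highest for ACVR1C (198 CPM). Control sheep 201 was the lowest for BMP2 (17.1 CPM) and CHRDL1 (364 CPM). Testosterone sheep 233 was the highest for ACVR1 (57.4 CPM), TGFBR3 (174 CPM) and GDF10 (1.15 CPM).

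FSTL1 in perirenal fat was 719, 697 and 599 CPM in testosterone sheep 185, 233 and 255 and 167 CPM in testosterone sheep 48, against 319, 387, 275 and 266 CPM in control sheep 98, 131, 132 and 201. Its log2 change was 0.80 with a 95% interval from -0.04 to 1.64 (adjusted p = 0.948 in edgeR's test). The library with the highest INHBA was also the one with the highest TGFB3 in subcutaneous and perirenal fat of control sheep and in none of the other 6 groups.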
